A study of Rattus norvegicus with 72 samples.

Results

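The change over the first day after injury was compared between 2 sites of sciatic nerve crush in the rat, one labelled distal and the other proximal. The arrays were chosen by their labels. They were the distal and proximal arrays of 1, 24 and 28 h with the letters a, b and c, which made 18 of the 72 arrays of the study, 9 at each site and 3 in each group. A change is the mean of the 6 arrays of 24 and 28 h, called late here, minus the mean of the 3 arrays of 1 h at the same site. The difference of changes is the distal change minus the proximal change, so that a constant shift between the arrays of the sites drops out. A gap in scale between them does not. The 9 sham arrays of the same hours, also 3 in each group, gave the background. All 9 groups were Wistar rats aged 8 to 12 weeks with no genetic alteration in the labels, and RNA came from the lumbar ganglia L4 and L5. The labels give neither the distance of each crush from the ganglia nor what the sham operation was. They do not say that the arrays of a group are separate animals, and the spread behind each p-value is that between arrays, which may be technical.

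A dorsal root ganglion holds the cell bodies of sensory neurons, their satellite glia, Schwann cells, macrophages and vessels. When an axon is crushed, signals travel back to the cell body along microtubules on dynein motors, partly with importins and phosphorylated kinases, and the neuron then switches on transcription factors such as Atf3, Jun, Sox11 and Stat3 together with growth genes, neuropeptides and cytokines. The study followed this retrograde response, and the lesion site sets how far the signal has to travel.

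The values were log2 signals between 3.27 and 14.64. Among the neuronal markers, peripherin (Prph, between 13.33 and 13.49) and advillin (Avil, between 12.68 and 12.95) were high on all 18 lesioned arrays. Others were dimmer, such as Pou4f1 (6.22 to 8.87) and Prdm12 (6.44 to 8.18). The spinal cord markers Mog, Mobp and Opalin, known from oligodendrocytes, had mean signals below the filter level of 5.46. Aqp4 and Cspg5 from the same list were above it (means of 5.93 and 6.65), and 1 of these 2 rose in distal. All 9 distal arrays lay in one technical set, found by clustering the arrays on dim probe sets, and all proximal and sham arrays lay in another. Within the 1 h groups, arrays b and c stood apart from array a by 2-fold or more for 401 genes in proximal and 326 in sham, of which 238 were shared with one sign, against 41 genes in distal. Some of the counts that move without those arrays are also given so. Levels of a gene at the 2 sites cannot be told apart from the technical set, whereas each change compares arrays of 1 set. The sets also differed in scale. The interquartile range of the log2 signals on an array ran from 3.51 to 3.73 in distal, 3.15 to 3.38 in proximal and 3.13 to 3.39 in sham. A wider scale can enlarge the distal changes, and its part in the differences was not tested. The gap between the 3′ and 5′ beta-actin control probe sets, a sign of RNA quality, moved with the hour in distal, from 0.75 to 0.76 log2 units at 1 h to between 1.18 and 1.44 late, without overlap. It ran from 0.65 to 1.18 and from 0.53 to 1.71 in proximal and from 0.74 to 1.41 and from 0.60 to 2.21 in sham. The part of RNA quality in the distal change was not tested.

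Promoters are printed for 4 genes that rose after both lesions, because the text returns to their values and their promoters hold short motifs of factors known in the injury response. They are RefSeq sequences of build GRCr8, from 250 bases before to 50 bases after the gene start, read 5′ to 3′ on the strand of the gene. Capitals mark AP-1 (TGANTCA), CRE (TGACGTCA), STAT (TTCNNNGAA) or NF-kappaB (GGGA and TTCC set apart by 2 bases) matches on either strand.
Il6, chr4:5894526-5894825, minus strand, a CRE and an NF-kappaB match: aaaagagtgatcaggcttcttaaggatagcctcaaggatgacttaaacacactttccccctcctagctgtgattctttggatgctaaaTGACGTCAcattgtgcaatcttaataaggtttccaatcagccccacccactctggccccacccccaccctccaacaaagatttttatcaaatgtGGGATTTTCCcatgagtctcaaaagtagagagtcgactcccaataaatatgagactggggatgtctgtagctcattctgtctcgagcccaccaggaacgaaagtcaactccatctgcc
Reg3b, chr4:112419526-112419825, plus strand, a STAT match: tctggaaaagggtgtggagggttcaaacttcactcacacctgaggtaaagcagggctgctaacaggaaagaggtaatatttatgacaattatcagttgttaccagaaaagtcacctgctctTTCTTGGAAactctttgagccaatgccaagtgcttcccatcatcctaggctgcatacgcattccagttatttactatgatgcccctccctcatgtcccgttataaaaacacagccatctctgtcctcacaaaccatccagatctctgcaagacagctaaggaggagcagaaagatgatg
Sprr1a, chr2:180752576-180752875, minus strand, 2 AP-1 matches: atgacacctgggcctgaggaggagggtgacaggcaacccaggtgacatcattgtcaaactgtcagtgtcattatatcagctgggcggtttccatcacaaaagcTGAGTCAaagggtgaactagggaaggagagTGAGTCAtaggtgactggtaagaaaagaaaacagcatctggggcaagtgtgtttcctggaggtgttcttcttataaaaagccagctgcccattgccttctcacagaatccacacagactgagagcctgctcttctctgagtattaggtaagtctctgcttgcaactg
Tnfaip6, chr3:56911148-56911447, plus strand, an AP-1 match: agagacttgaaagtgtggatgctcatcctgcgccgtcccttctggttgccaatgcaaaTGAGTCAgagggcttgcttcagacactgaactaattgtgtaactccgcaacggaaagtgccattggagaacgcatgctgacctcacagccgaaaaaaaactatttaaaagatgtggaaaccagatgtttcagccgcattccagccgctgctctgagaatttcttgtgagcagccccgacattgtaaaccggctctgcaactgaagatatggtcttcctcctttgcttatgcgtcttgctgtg
The promoter table held 10155 of the 12276 tested genes. AP-1 letters were in 5.12% of all these promoters, in 41 of 586 of genes that rose after both lesions, and in 8 of 68 (11.8%) where the rise was 2-fold or more at both sites. STAT letters were in 6.66%, 9.39% and 10 of 68 (14.7%), and NF-kappaB letters in 1.43%, 2.90% and 5 of 68 (7.35%). The CRE (3.14%, 2.56% and 4.41%) and the E-box CACGTG (9.27%, 9.73% and 8.82%) were at more even shares. Among promoters of genes whose difference of changes was called and 2-fold or more, AP-1 letters were in 4 of 101 with a positive difference and in 5 of 85 with a negative one, and STAT letters in 11 (10.9%) and 4 (4.71%). The D-box TTATGNAA of clock factors was in 1.78% of all promoters, 3 of 68 of the 2-fold shared rises, 0 of 101 and 2 of 85. A match is a description of the letters and not a binding site.

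Over the first day, 2042 genes rose (16.6%) and 894 fell (7.28%) after the distal lesion (2936 called, 23.9% of 12276, at an adjusted p under 0.05 in limma). After the proximal lesion 1867 rose (15.2%) and 2291 fell (18.7%; 4158 called, 33.9%). After sham, 371 rose (3.02%) and 388 fell (3.16%; 759 called, 6.18%), a count that was 217 without sham array b and 1751 without sham array a of 1 h. At both sites 710 genes rose (5.78%), which were 34.8% of the distal and 38.0% of the proximal rises, and 361 fell (2.94%), which were 40.4% of the distal and 15.8% of the proximal falls. Opposite calls were made for 208 genes (1.69%), of which 166 rose after the distal lesion. Of the shared rises, 86 were 2-fold or more at both sites, and sham was called for 11 of them. A change beyond sham is the change at a site minus the sham change. It was called at both sites with the shared sign for 146 of the 710 shared rises and 45 of the 361 shared falls. Among the 86 rises of 2-fold or more it was called so for 71. Of all genes 3.36% were called beyond sham in proximal and 12.4% in distal. The median shared rise was 0.59 in distal and 0.57 in proximal on the log2 scale against 0.19 in the same genes in sham, and the median shared fall was −0.49 and −0.54 against −0.12. All 6 late arrays lay above all 3 arrays of 1 h at both sites for 660 genes (5.38%).

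The difference of changes was called for 2522 genes (20.5%), 1745 positive (14.2%) and 777 negative (6.33%), and 221 of them were 2-fold or more. Of the shared rises, 625 were not called in the difference, 52 rose more after the distal and 33 more after the proximal lesion. Of the shared falls, 334 were not called in the difference. The median difference over all genes was 0.11, a common shift that favours positive calls. Without the proximal and sham arrays b and c of 1 h, 4805 genes were called in the difference (2197 of the 2522 among them with the same sign) and the median was 0.21, with 5022 genes called in proximal (1872 higher and 3150 lower) and 1057 shared. Without array a in place of those arrays, 1828 of the 2522 kept their call and sign, and the median was 0.06. Leaving out proximal array a of 1 h alone gave 1639 calls.

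**Figure D1:**
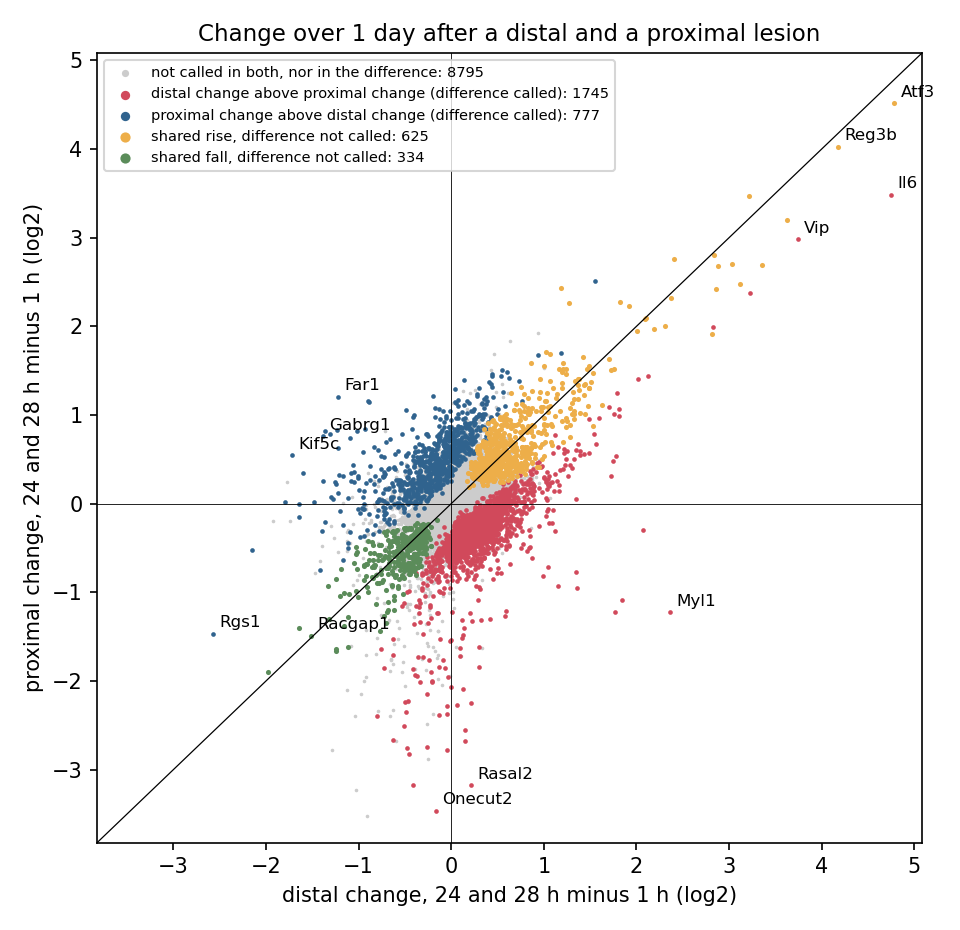
Distal change (x axis) against proximal change (y axis) of 12276 genes, each as the log2 mean of 24 and 28 h minus 1 h, with the line of equal changes. Red marks the 1745 genes with a positive and blue the 777 with a negative called difference, yellow the 625 shared rises and green the 334 shared falls with no called difference. Atf3 and Reg3b lie near the line, Il6 and Vip to its right.

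The injury transcription factors Atf3, Jun, Fos, Myc and Sox11 rose after both lesions, and none of these 5 was called in the difference of changes. Atf3, a stress-induced member of the ATF family, was at 7.66, 7.26 and 7.75 on the distal and 8.11, 7.96 and 7.79 on the proximal arrays of 1 h. Late arrays ran from 12.16 through a median of 12.39 to 12.41 in distal and from 12.11 through 12.59 to 12.68 in proximal. All late arrays were above all early ones at each site, and the late ranges of the sites overlapped. The rise was 4.78 ± 0.34 (SE) in distal (27.5-fold, adjusted p = 2.01e-10) and 4.52 ± 0.34 in proximal (22.9-fold, adjusted p = 8.39e-10). Sham rose by 1.496 (adjusted p = 0.00998), with late sham arrays from 7.83 to 10.16. The difference of changes was 0.27 with a 95% interval from −0.74 to 1.27, an interval that still holds a distal change 2-fold above the proximal one.

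Jun, the AP-1 subunit that growth of injured axons depends on, was at 10.83, 10.59 and 10.73 in distal and 10.50, 10.36 and 10.38 in proximal at 1 h, and between 11.45 and 11.72 and between 11.28 and 11.83 late. Its rise was 0.83 ± 0.10 in distal and 1.08 ± 0.10 in proximal, with a sham change of −0.22. The Jun difference was −0.25 (adjusted p = 0.218), and it was called with array weights (−0.37). A second Jun probe set gave a called difference of −0.62. Fos, the AP-1 partner of Jun, rose by 1.37 and 1.18 in distal and proximal, and Myc, a growth regulator, by 1.21 and 1.59. Sox11, a developmental factor, was between 5.31 and 5.70 at 1 h at both sites and reached medians of 7.42 in distal and 7.79 in proximal late. Its rises were 1.82 and 2.28, and its difference of −0.46 (adjusted p = 0.175) was called after another quantile normalization (−0.76, adjusted p = 0.0194) and with array weights. Egr1, an activity-induced factor, was called at neither site (0.11 and −0.16), except for a proximal fall with array weights or without array a of 1 h (−0.48 in both).

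Gadd45a, a stress and DNA demethylation factor of injured neurons, was at 10.04, 10.06 and 10.08 in distal and 9.60, 9.50 and 9.52 in proximal at 1 h. Its late medians were 12.45 and 12.32, with no overlap between hours at either site. It rose by 2.40 ± 0.15 and 2.76 ± 0.15, while sham changed by 0.40. The Gadd45a difference of −0.36 was called with array weights (−0.47) and in a fit of the 18 lesioned arrays alone. Of the 30 immediate-early genes tested, 12 rose and 3 fell in distal, 12 rose and 4 fell in proximal, and 1 rose and 7 fell in sham. Of all genes 16.6% rose and 7.28% fell in distal, 15.2% and 18.7% in proximal, and 3.02% and 3.16% in sham. At both sites 5.78% of all genes rose and 2.94% fell. The 12 shared rises were Fos, Fosl1, Jun, Myc, Atf3, Ier3, Ier5, Klf6, Klf10, Maff, Csrnp1 and Gadd45g, and the 2 shared falls were Klf2 and Klf4. Gadd45g, a relative of Gadd45a, rose by 1.39 and 1.02 in distal and proximal and fell by 0.74 in sham, and its difference of 0.37 was called without arrays b and c of 1 h (0.70). Klf10, a zinc finger factor of the TGF-beta response, rose by 0.74 and 1.05. Nr4a1 was the only one of the 30 called in the difference of changes in the main fit, where 20.5% of all genes were called. With a term for the 1 h arrays b and c, 1 positive and 2 negative differences of the 30 were called, against 5150 of all genes.

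Secreted factors were among the largest shared rises. Reg3b, a lectin-type factor of injured neurons and gut, was at 7.45, 6.71 and 7.55 in distal and 6.62, 7.25 and 7.18 in proximal at 1 h. Late values ran from 10.98 through a median of 11.47 to 11.65 in distal and from 10.60 through 11.11 to 11.27 in proximal. The late arrays of each site stood clear of its early arrays by more than 3 log2 units. Reg3b rose by 4.18 ± 0.20 (18.1-fold) and 4.03 ± 0.20 (16.3-fold), and by 0.73 in sham. The difference was 0.15 with a 95% interval from −0.42 to 0.72. Its relative Reg3a rose by 3.35 and 2.69, with a difference of 0.66 (adjusted p = 0.108) that was called at 28 h alone (1.07, adjusted p = 0.0446).

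Tslp, a cytokine of barrier tissues, was at 5.76, 5.66 and 6.17 in distal and 5.17, 5.20 and 5.16 in proximal at 1 h, and at late medians of 9.12 and 8.71. It rose by 3.22 ± 0.13 and 3.48 ± 0.13 and by 0.35 in sham. Its difference of −0.26 (adjusted p = 0.333) was called only after another quantile normalization (−0.60, adjusted p = 0.0376). Tnfaip6, a hyaluronan-binding protein induced by TNF, was between 5.34 and 5.77 at 1 h at both sites, and late arrays ran from 8.83 to 9.65 in distal and from 8.07 to 9.38 in proximal. It rose by 3.63 ± 0.17 (12.3-fold) and 3.20 ± 0.17 (9.22-fold) against 0.03 in sham. Ccl2, which draws monocytes into ganglia, rose by 1.21 and 1.52 against 0.26 in sham. Neither was called in the difference with all arrays, and Tnfaip6 was called without proximal array b of 24 h (0.60, adjusted p = 0.0153).

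Arg1, the urea cycle enzyme that feeds polyamine synthesis, was between 5.55 and 5.91 at 1 h at both sites, and its late medians were 8.69 in distal and 8.56 in proximal. It rose by 2.88 ± 0.13 and 2.68 ± 0.13. Smagp, a small adhesion glycoprotein, rose by 2.84 and 2.81, and by 0.62 in sham (adjusted p = 0.0115). Gfap, an intermediate filament of reactive satellite glia, was between 7.67 and 8.08 at 1 h and between 10.18 and 11.11 late, and rose by 3.03 ± 0.20 and 2.70 ± 0.20 against 0.43 in sham. The peptides galanin (Gal; 1.71 and 1.64) and PACAP (Adcyap1; 1.93 and 2.23) also rose at both sites. The Adcyap1 difference of −0.31 was called without arrays b and c of 1 h (−0.61, adjusted p = 0.0150) and on a second probe set (−0.70, adjusted p = 0.0262). Gap43, a growth cone protein that was already bright at 1 h (12.12 to 12.48), rose by 0.23 and 0.29, and a second probe set of it gave −0.08 in proximal.

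**Figure D2:**
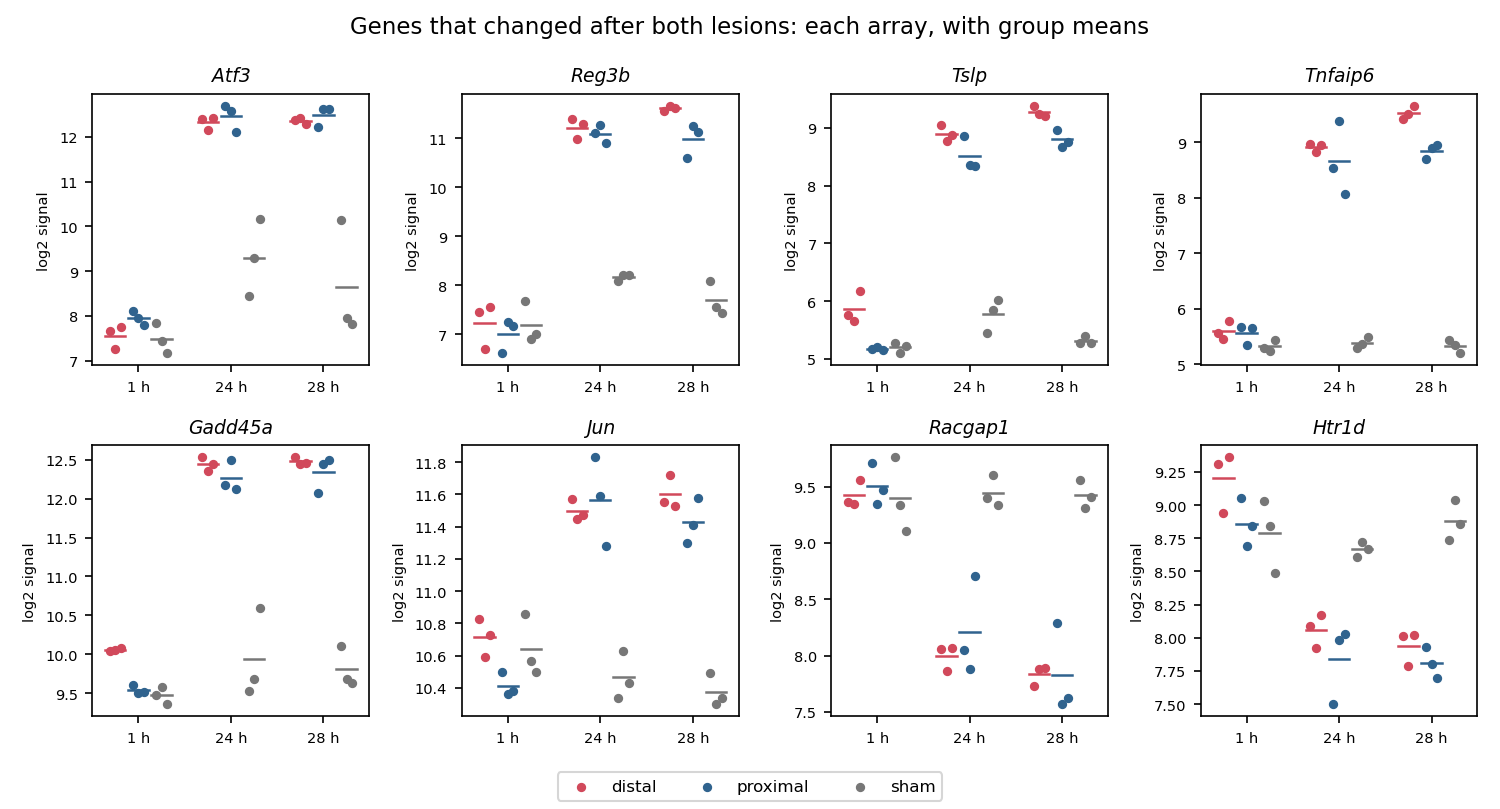
Log2 signal of every array (points) with group means (bars) at 1, 24 and 28 h after distal, proximal or sham surgery, for 6 shared rises and 2 shared falls. Distal and proximal points move together, as for Atf3 with rises of 4.78 and 4.52, and Racgap1 with falls of 1.51 and 1.49 on the log2 scale, while the sham points of Tnfaip6 and Racgap1 stay level (0.03 and 0.03).

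Of 48 listed injury and regeneration genes 44 were tested, and 34 of them rose after both lesions. In distal 34 rose and 0 fell, in proximal 37 rose and 3 fell, and in sham 4 rose and 2 fell, where 16.6%, 15.2% and 3.02% of all genes rose. The list medians were 0.83, 1.01 and 0.12. Without the 1 h arrays b and c of proximal and sham, 30 of the 44 rose at both sites, and without array a 35. These genes are listed because such injuries are known to induce them, and earlier results on these arrays were known when the list was made. The difference of changes was called for 7 positive members (Sprr1a, Npy, Vip, Csrp3, Il6, Cacna2d1 and Ngfr) and for 2 negative members (Bdnf and Ecel1). These 9 of 44 are near the share of all genes called in the difference (20.5%, 14.2% positive and 6.33% negative). After another quantile normalization 3 positive and 3 negative members were called.

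Il6, the cytokine that acts through gp130 and Stat3, had the smallest adjusted p in the difference among the injury genes. At 1 h it was at 4.23, 4.28 and 4.24 in distal and 4.26, 4.15 and 4.17 in proximal, all below the filter level of 5.46. Distal arrays reached 9.22, 8.91 and 8.68 at 24 h and 9.33, 8.91 and 8.99 at 28 h. Proximal arrays reached 7.88, 8.26 and 7.65 at 24 h and 7.13, 7.40 and 7.77 at 28 h. The late ranges did not overlap, and sham stayed between 4.19 and 4.82. The sites lay 0.06 apart at 1 h and 1.33 apart late (distal minus proximal), so the difference of changes lay in the late gap. A gap in level between the sites cannot be told apart from the technical set. With all 1 h values of Il6 below the filter level, a shift between the sets need not drop out of its difference. The rise was 4.75 ± 0.16 in distal (at least 11.7-fold over the filter level) and 3.49 ± 0.16 in proximal (at least 4.65-fold). The difference of 1.27 (95% interval 0.82 to 1.72, adjusted p = 0.000618) was called without each single array, without arrays b and c or array a of 1 h (1.34 and 1.23), and after another quantile normalization (0.95). Of 23 JAK-STAT genes tested, 9 rose in distal and 7 in proximal, 6 of them at both sites (Stat3, Jak2, Socs3, Cish, Il6 and Ptpn2), and Il6 was the only one called in the difference. Of all genes 16.6% rose in distal, 15.2% in proximal and 5.78% at both sites, and 20.5% were called in the difference. Stat3, the main transducer of Il6, rose by 0.59 and 0.35, its difference of 0.24 was called only with a term for the 1 h arrays b and c (0.35), and a second probe set gave −0.98 in proximal. Socs3, its feedback inhibitor, rose by 0.85 and 1.03. Without arrays b and c of 1 h, 3 of the 23 were shared rises.

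Vasoactive intestinal peptide (Vip), a peptide that injured sensory neurons begin to make, was at 4.68, 5.33 and 4.69 in distal and 5.34, 5.13 and 5.25 in proximal at 1 h. Late values ran from 8.14 to 9.02 in distal and from 7.83 to 8.54 in proximal, and the late ranges overlapped. It rose by 3.74 ± 0.14 and 2.98 ± 0.14 against 0.28 in sham, at least 9.06-fold and at least 6.78-fold over the filter level. All 1 h arrays of both sites were below that level, where values have no sure order, and the difference of 0.76 (adjusted p = 0.00906) rests in part on them. It was not called after another quantile normalization (0.35, adjusted p = 0.182). Neuropeptide Y (Npy), another injury-induced peptide, was at 7.75, 7.35 and 7.63 in distal and 7.86, 7.97 and 7.59 in proximal at 1 h. At 24 h all distal arrays (8.81 to 8.84) were above all proximal ones (8.35 to 8.51), and likewise at 28 h (9.47 to 9.55 against 8.99 to 9.20). Such gaps in level cannot be told apart from the technical set. Npy rose by 1.60 ± 0.12 and 0.97 ± 0.12 against 0.01 in sham. Its difference of 0.63 (adjusted p = 0.0140) missed the threshold without distal array b of 1 h (adjusted p = 0.0584) and with all 72 arrays in the fit (0.0674).

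The sites lay further apart at 1 h than late for Csrp3 (gaps of −0.95 and −0.09, distal minus proximal) and Sprr1a (−0.83 and −0.08). Csrp3, the muscle LIM protein that injured sensory neurons also make, was at 5.58, 5.44 and 5.63 in distal and 6.87, 6.42 and 6.21 in proximal at 1 h, while the late ranges overlapped (8.07 to 9.39 and 8.39 to 9.15). It rose by 3.22 ± 0.17 and 2.37 ± 0.17, a difference of 0.85 (adjusted p = 0.0146). Sprr1a, a cornified envelope protein of regenerating neurons, was at 4.99, 5.20 and 5.08 in distal and 6.25, 5.90 and 5.60 in proximal at 1 h and reached 6.38 to 7.08 and 6.58 to 7.30 late. Its rises were 1.76 ± 0.15 and 1.01 ± 0.15, a difference of 0.75 (adjusted p = 0.0133). The distal arrays of 1 h were below the filter level and the proximal ones were not, so that the rises were at least 2.61-fold in distal and 2.02-fold in proximal, and part of the difference lay below that level. Sham arrays of 1 h were at 5.96, 5.79 and 6.02 for Sprr1a. Without proximal array a of 1 h the differences of Csrp3 and Sprr1a missed the threshold (0.67 with adjusted p = 0.0642 and 0.58 with adjusted p = 0.0609), and so they did after another quantile normalization (0.51 and 0.54), at 24 h alone (0.67 and 0.65) and with all 72 arrays in the fit.

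Ecel1, an endopeptidase of injured neurons, rose more after the proximal lesion. It was between 5.13 and 5.53 at 1 h at both sites, and late arrays ran from 5.38 to 5.88 in distal and from 5.99 to 6.77 in proximal without overlap. This late gap in level cannot be told apart from the technical set. Ecel1 rose by 0.34 and 0.98, the distal rise being lost without distal array c of 1 h (0.24, adjusted p = 0.197). The difference of −0.64 (adjusted p = 0.00909) was not called at 24 h alone (−0.30), and a dimmer second probe set gave 0.06. Cacna2d1, the calcium channel subunit bound by gabapentin, lay between 9.75 and 10.55 on all distal arrays. Proximal arrays went from 8.27, 8.51 and 8.37 to between 5.87 and 7.89, and sham arrays from 6.91, 8.13 and 8.08 to between 5.70 and 6.58. The proximal fall of 1.31 on the log2 scale (adjusted p = 0.000362) was therefore near the sham change of −1.503. The difference of 1.63 was not called at 28 h alone (1.14) or with all 72 arrays in the fit.

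**Figure D3:**
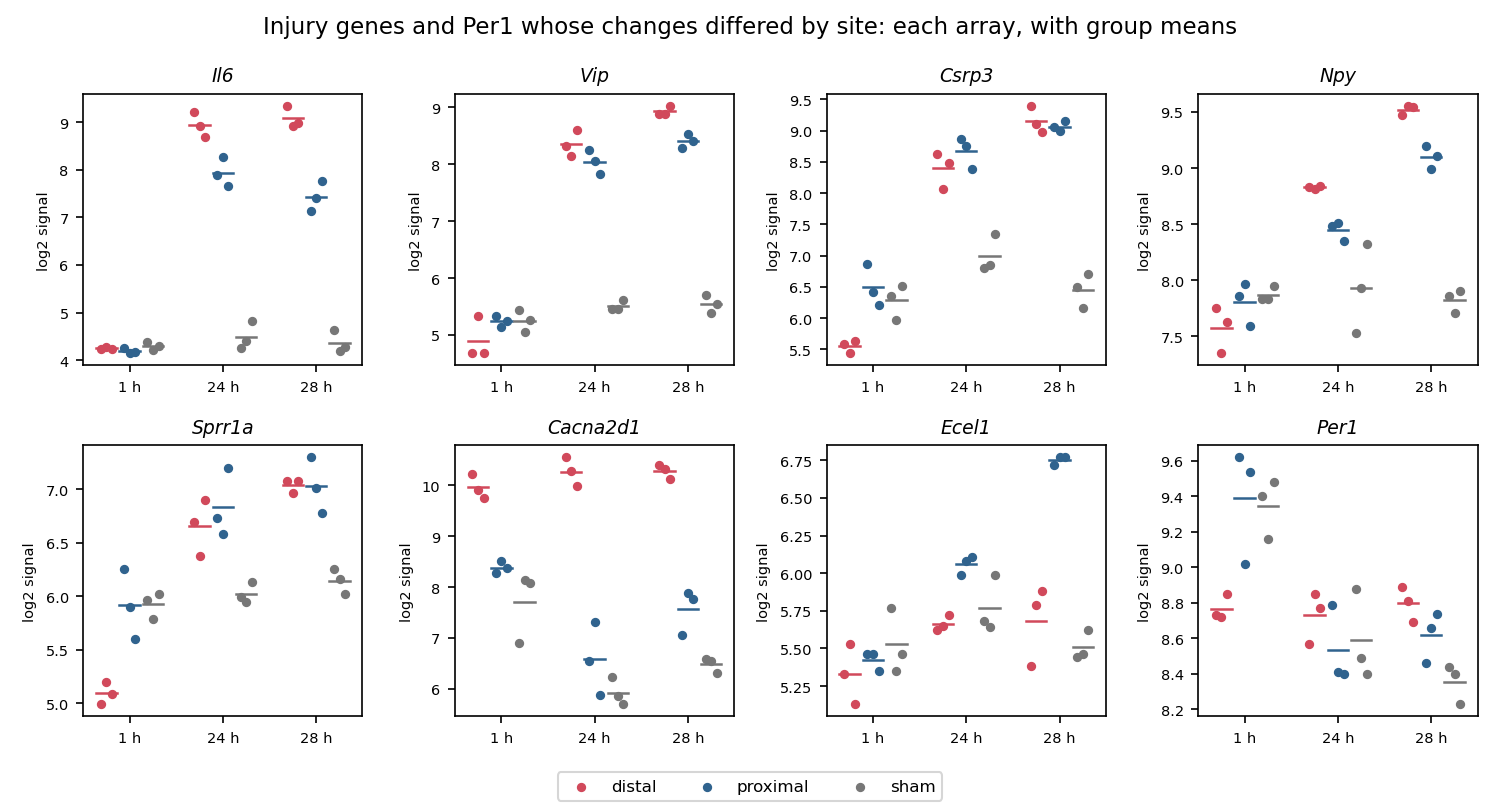
Log2 signal of every array (points) with group means (bars) for 7 listed injury genes and the clock gene Per1 at 1, 24 and 28 h. Late distal points of Il6 (8.68 to 9.33) lie above the proximal ones (7.13 to 8.26). The sites part at 1 h for Csrp3 and Sprr1a, and the proximal and sham points of Cacna2d1 and Per1 fall together.

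Falls shared by both lesions were fewer, and 14 were 2-fold or more at both sites, of which sham was called for 6. Of these 14, 4 were called beyond sham at both sites. Racgap1, a GTPase-activating protein of cytokinesis, was at 9.36, 9.35 and 9.56 in distal and 9.71, 9.35 and 9.47 in proximal at 1 h. Late values ran from 7.73 to 8.07 and from 7.57 to 8.71, below all early arrays at each site. It fell by 1.51 ± 0.16 in distal and by 1.49 ± 0.16 in proximal, while sham changed by 0.03. Htr1d, the serotonin receptor targeted by triptans, fell by 1.203 and by 1.04 against a sham change of −0.01. Adra2c, an alpha-2 adrenoceptor, fell by 1.25 and by 1.66, and the difference of 0.41 was not called in the full data. It was called without proximal array c of 24 h (0.52, adjusted p = 0.0167) and with array weights (0.50).

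Inhbb, an activin subunit, fell by 1.32 and by 1.30 against −0.29 in sham, Fgf18, a growth factor, by 1.12 and by 1.27 against −0.44, and Grik1, a kainate receptor subunit, by 1.03 and by 0.98 against −0.22. Isl1, a homeodomain factor of sensory neurons, fell by 1.01 and by 1.06, but proximal array a of 1 h was at 8.70 against 9.76 and 9.73 on b and c. Without arrays b and c the proximal change of Isl1 was −0.36 (adjusted p = 0.242). With a term for those arrays the Isl1 difference of 0.05 became −0.70 (adjusted p = 0.0204). Slitrk3, a synaptic adhesion protein, also had a low array a (5.92 against 7.21 and 7.22) and fell by 1.11 and by 1.62. Its proximal fall was not called without arrays b and c (−0.76), nor its distal fall without distal array a of 1 h (−0.94). Depp1, a stress-regulated autophagy gene, fell by 1.64 and by 1.40 but also by 1.14 in sham (adjusted p = 3.35e-08). Rgs1, a regulator of G protein signalling in leukocytes, fell by 2.57 ± 0.17 in distal and by 1.47 ± 0.17 in proximal against −1.27 in sham. Its late arrays were all below the filter level, the difference was −1.10 (adjusted p = 0.00316), and with all 72 arrays in the fit that difference was not called.

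The genes with the largest positive differences were of 2 kinds. Rasal2, Onecut2, Rab14, Tcf4, Secisbp2l, Slc5a3 and Dync1li1 were not called in distal (−0.41 to 0.21) and fell in proximal by 2.55 to 3.46 on the log2 scale, and in sham by 2.36 to 3.10. Rasal2, a Ras GTPase-activating protein, was at 9.76, 9.77 and 9.96 in distal at 1 h and between 8.98 and 10.49 late. In proximal it was at 5.39, 9.52 and 9.19 at 1 h and between 4.57 and 5.11 late, and in sham at 4.70, 9.35 and 9.13 and between 4.66 and 5.28. Array a of 1 h was thus near the late level in both proximal and sham, and b and c were not. The difference of 3.39 ± 1.04 (adjusted p = 0.0240) was 0.75 (adjusted p = 0.145) without arrays b and c, and 4 of 18 single arrays left out also ended the call. Rab14, a GTPase of endosomal traffic, behaved likewise (7.82 against 11.98 and 11.77 in proximal at 1 h), and its difference of 2.82 was 0.12 without them and was lost in 8 of 18 fits that left out 1 array. Further Rab14 probe sets gave called differences of the other sign (−1.30 and −1.66). Tcf4, a basic helix-loop-helix factor, went from 2.76 to 0.28 and Slc5a3, an inositol transporter, from 2.70 to 0.74 without those arrays. The Tcf4 call was lost in 16 of 18 fits that left out 1 array, and the Slc5a3 call without proximal array b of 1 h (2.19, adjusted p = 0.0525).

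Onecut2, a homeodomain factor of sensory neurons, was at 6.46, 9.21 and 9.19 in proximal at 1 h and between 4.46 and 5.04 late, and at 5.0, 9.42 and 9.21 and between 4.71 and 5.23 in sham. Distal arrays stayed between 8.94 and 9.91. The difference was 3.30 ± 0.87 (adjusted p = 0.0107), and other Onecut2 probe sets gave 1.71 (called, adjusted p = 0.0352), 0.77 and −0.38 (neither called). Secisbp2l, a protein related to a selenocysteine insertion factor, was near 12 on all distal arrays (11.64 to 12.19) and fell in proximal from 11.78, 12.26 and 12.07 to between 8.00 and 10.04. Its difference of 2.73 (adjusted p = 0.00145) was called without arrays b and c and without array a, and not on a second probe set (0.73, adjusted p = 0.579). Dync1li1, the dynein light intermediate chain that links cargo to the retrograde motor, fell by 2.74 in proximal and by 2.71 in sham, and a second probe set gave a called difference of −2.06 in place of 2.48, whose call was lost without proximal array b of 1 h (2.05). For these 7 genes the proximal change beyond sham lay between −0.53 and 0.28 and was not called, as for most genes (413 called, 3.36%). The distal change beyond sham was called for 1519 genes (12.4%).

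The other kind was skeletal muscle genes. Of the 8 named here, 7 rose in distal, and the distal change of Acta1 (0.63, adjusted p = 0.0953) was not called. Without distal array a of 1 h, Myl1 alone of the 7 kept a called rise. Myl1, a fast myosin light chain, was at 4.81, 5.17 and 6.51 in distal at 1 h and at 7.21, 6.56 and 6.94 at 24 h. At 28 h it was at 10.12 on array a, 6.82 on b and 9.52 on c. Proximal arrays were at 7.72, 7.32 and 7.51 at 1 h and between 4.78 and 7.72 late. The difference was 3.59 ± 0.83 (adjusted p = 0.00486). Myl11 (2.98), the troponins Tnnc2 (2.93), Tnni2 (2.12) and Tnnt3 (2.08), creatine kinase Ckm (1.81), the actin cross-linker Actn3 (1.76) and Acta1 (1.31) went the same way. Of 17 listed muscle markers 14 were tested, 10 rose in distal (median 0.87) and 0 in proximal (median −0.49), and 7 were called in the difference, while Myl11 stands outside the list. Their mean level per array ran from 6.67 to 7.02 in distal at 1 h, from 6.97 to 9.11 in distal late, from 7.49 to 7.82 in proximal at 1 h and from 6.81 to 7.51 in proximal late. Whether muscle tissue was taken with the ganglia was not tested, and distal arrays a and c of 28 h carried the highest values. At 24 h alone Myl1 was still called, and Myl11, Tnnc2, Tnni2, Tnnt3, Ckm, Actn3 and Acta1 were not. Acta1 was also lost without distal array a (1.18) or b (1.24) or proximal array a (1.07) of 1 h. With all 72 arrays in the fit none of these 8 was called.

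Of the 10 genes with the largest negative differences, 8 fell in distal and 4 rose in proximal (Far1, Chm, Ireb2 and Utrn). The distal changes of Ireb2 and Utrn (−0.89 and −0.89) were not called (adjusted p = 0.0976 and 0.103). Far1, an enzyme of ether lipid synthesis, averaged 10.09 ± 0.08 (SD, n = 3) in distal at 1 h and between 8.72 and 8.98 late, without overlap. Proximal arrays were at 7.02, 7.75 and 8.68 at 1 h and between 8.53 and 9.85 late. It fell by 1.22 in distal, rose by 1.21 in proximal and changed by 0.01 in sham, a difference of −2.43 ± 0.49 (adjusted p = 0.00194) that was called without arrays b and c and without array a of 1 h. The proximal rise of Far1 was not called without proximal array a of 1 h (0.81, adjusted p = 0.114), and those of Ireb2 and Utrn not without that array or proximal array b of 24 h, while the rise of Chm (0.83, adjusted p = 0.0372) was lost in 5 of 9 fits that left out 1 proximal array. The distal falls of Gabrg1, Pik3r1 and Cds2 were lost without distal array a of 1 h, that of Cds2 also without array b, and that of Ddx3x-ps1 in 7 of 9 fits. Gabrg1, a GABA-A receptor subunit, averaged 9.93 ± 0.12 (SD, n = 3) in distal at 1 h and between 8.43 and 8.65 late, and gave a difference of −2.15. Kif5c, a neuronal kinesin of anterograde transport, fell by 1.72 in distal and gave −2.27, which was lost without proximal array a of 1 h (adjusted p = 0.0892), and a second probe set gave 0.77. Pik3r1 (−2.19), the regulatory subunit of PI3 kinase, and Cds2 (−1.85), an enzyme of phospholipid synthesis, were not called without arrays b and c (−1.07 and −1.18), and Cds2 also not without proximal array b alone (−1.52).

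Chm (−2.07), an escort protein of Rab prenylation, had a second probe set at 0.02, and Utrn (−2.05), the dystrophin relative utrophin, one with a called difference of 0.87. Utrn, Luzp2 (−1.95), Ireb2 (−2.04), an iron-regulatory protein, and Ddx3x-ps1 (−2.09), named as a pseudogene and so open to shared signal with Ddx3x, lost the call without proximal array a of 1 h (−1.36, −1.62, −1.35 and −1.77). Ddx3x-ps1 lost it also without distal array b of 1 h (−2.07, adjusted p = 0.0507). The proximal change beyond sham was between −0.24 and 1.23 for these 10 genes, and 0 were called.

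**Figure D4:**
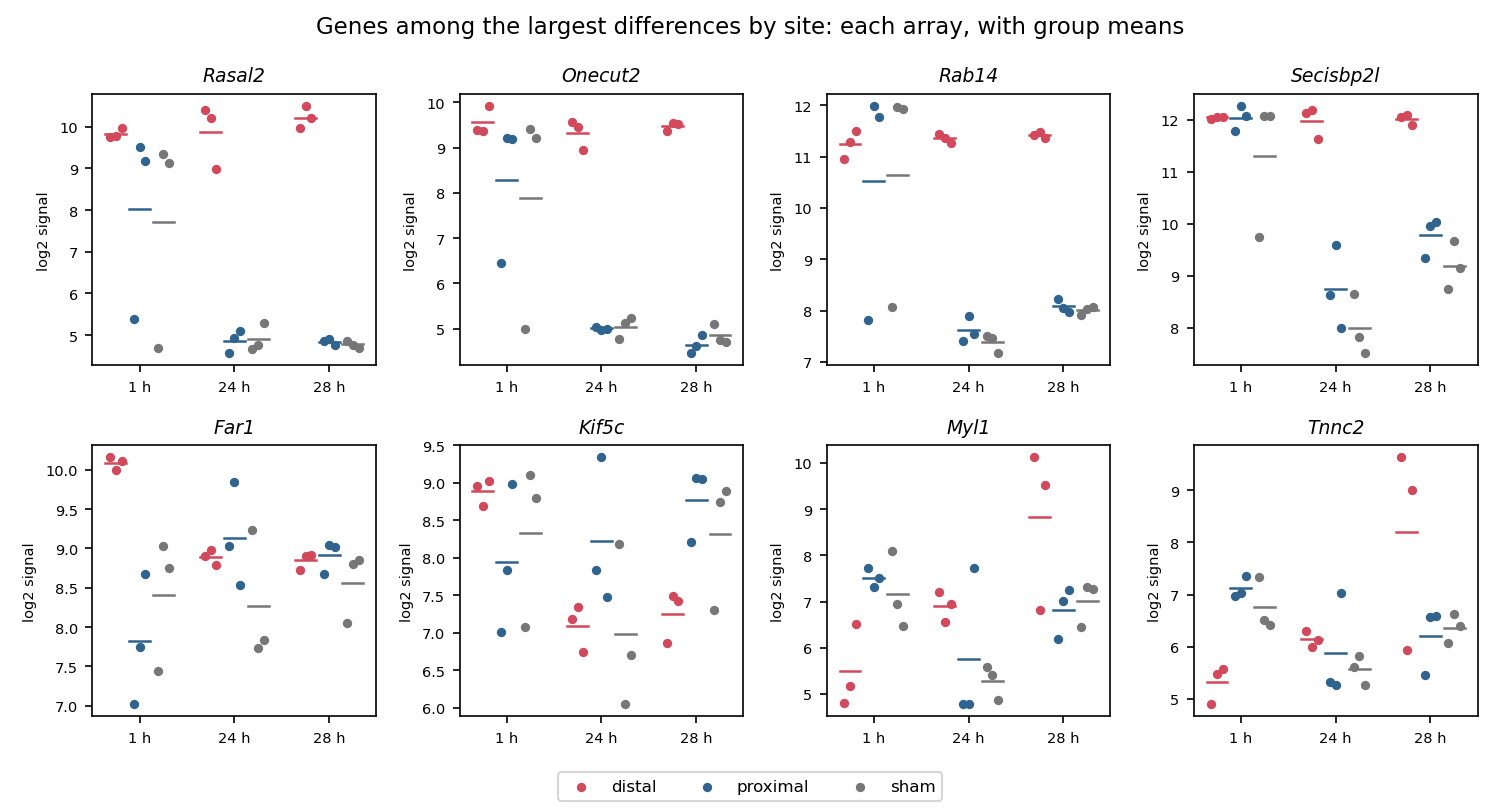
Log2 signal of every array (points) with group means (bars) for 8 genes among the largest differences by site. Proximal and sham arrays b and c of 1 h stand apart from array a for Rasal2, Onecut2 and Rab14, and distal arrays a and c of 28 h are high for Myl1 (10.12 and 9.52) and Tnnc2.

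The sham arrays were set beside the lesions for the genes that differed by site. Over the 2522 genes called in the difference, the sham change was nearer to the proximal change in 1743 (69.1%), against 7061 of all 12276 genes (57.5%). Sham was called for 329 of the 2522, against 6.18% of all genes, with the sign of the proximal change in 328 and of the distal change in 172. Across all genes the correlation of changes was 0.684 between proximal and sham, whose arrays lie in one technical set, 0.453 between distal and proximal, and 0.2502 between distal and sham. Genes are not independent replicates, and no test was made. Of the 2522 genes, 750 were called in distal alone, 1262 in proximal alone, 320 at both sites and 190 at neither. The sites lay further apart at 1 h than late for 1644 of the 2522 (65.2%), with median gaps of 0.49 and 0.30, against 58.5% of all genes. Among the 221 genes whose difference was 2-fold or more, this held for 112 (50.7%), with median gaps of 0.88 and 0.72. The distance between sites at either time cannot be told apart from the technical sets.

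Of 19 clock genes tested, 7 were called in the difference of changes, against 2522 of all genes (20.5%). Per1, Per3, Nr1d1, Dbp, Tef and Hlf had positive differences and Npas2 a negative one. In distal 7 rose and 1 fell, and in proximal 3 rose and 2 fell, with medians of 0.20 and −0.07. The count in the difference moved with the setting. Without the proximal and sham arrays a of 1 h, 4 positive and 1 negative clock differences were called, against 2266 calls over all genes. After another quantile normalization they were also 4 and 1, against 2516 calls. Without arrays b and c of 1 h they were 8 and 1, against 4805 calls. Nr1d1, the repressor Rev-erb alpha, was at 7.28, 6.60 and 7.05 in distal at 1 h and between 7.72 and 8.01 late. In proximal it was at 7.97, 7.72 and 7.69 and between 6.93 and 7.72. It rose by 0.84 ± 0.16 and fell by 0.50 ± 0.16, a difference of 1.34 (adjusted p = 0.000650), while sham changed by −0.30. The proximal fall of Nr1d1 was lost without proximal array a of 1 h (−0.41, adjusted p = 0.117). Per3, a period gene, rose by 1.05 in distal against −0.22 in proximal, a difference of 1.27 (adjusted p = 0.00237), and a dimmer probe set gave −0.03. Tef, a PAR leucine zipper factor, rose by 0.63 against −0.31, a difference of 0.94 (adjusted p = 0.00154), and a dimmer probe set gave −0.20. Its relative Dbp rose by 1.08 against −0.21, but its difference of 1.30 (adjusted p = 0.0481) was lost in 15 of the 18 fits that left out 1 array. Per1, a period gene that glucocorticoids also induce, was between 8.57 and 8.89 on all distal arrays, and in proximal at 9.62, 9.02 and 9.54 at 1 h and between 8.40 and 8.79 late. It fell by 0.82 in proximal and by 0.87 in sham, and the difference was 0.81 (adjusted p = 0.00396). Per2 was called at neither site (−0.06 and −0.11), though a second probe set rose by 0.96 in distal. The labels give hours after surgery and not the hour of day, and whether the hour of day differed between the sites was not tested.

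Glucocorticoid-responsive genes, which stress hormone released by surgery is known to raise, included falls in all groups. Of 18 tested, 11 fell in sham (median −0.64), 7 in distal (median −0.26) and 7 in proximal (median −0.22), and 4 rose at each site. Of all genes 3.16%, 7.28% and 18.7% fell. In proximal 1 of the 18 rose without arrays b and c of 1 h. In the difference Per1, Klf9 and Nfkbia were called positive and Glul negative. Nfkbia, the NF-kappaB inhibitor, was at 9.96, 10.04 and 9.96 in distal and 9.83, 9.85 and 10.04 in proximal at 1 h, and late between 8.95 and 9.56 and between 7.47 and 8.91, with no overlap between the sites. This late gap in level cannot be told apart from the technical set. Nfkbia fell by 0.73 ± 0.19 in distal, by 1.85 ± 0.19 in proximal and changed by −2.20 in sham. The difference was 1.12 (adjusted p = 0.00510), which was not called at 28 h alone (0.68). Klf9, a factor induced by the glucocorticoid receptor, changed by −0.41, −1.87 and −2.72, and the difference of 1.46 (adjusted p = 0.0191) was not called at 28 h alone (0.55), with a term for the 1 h arrays b and c (1.01) or with all 72 arrays in the fit, and a second probe set gave −0.34. Fkbp5, a receptor chaperone, fell by 0.56 in distal and by 0.91 in sham, and its proximal change of −0.35 was not called. The distal fall was lost without distal array a of 1 h (−0.38, adjusted p = 0.255). A second Fkbp5 probe set fell by 0.71 in distal and gave a called difference of −0.77 (adjusted p = 0.0291), which the probe set used did not (−0.21). Cebpd, an acute phase factor, rose by 0.83 and 0.59 and changed by −0.51 in sham. A second Cebpd probe set also rose at both sites (0.81 and 1.29), and a dim further one gave −0.05 and −0.14. On the probe set used, the proximal rise of Cebpd was 0.39 without arrays b and c of 1 h and was not called without b alone (0.50). Egr2, a Schwann cell myelination factor, changed by −0.38, −0.78 and −1.61 in distal, proximal and sham. Its difference was called only at 24 h alone (0.67). Nfil3, a repressor of D-box genes, rose by 0.79 and 1.04 and changed by −0.27 in sham.

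Of 25 chemokine, cytokine and NF-kappaB target genes 10 rose and 1 fell in distal and 14 rose and 2 fell in proximal, 8 of them rising at both sites (Ccl2, Ccl7, Cxcl12, Cxcl13, Icam1, Timp1, Tnfaip6 and Tslp). Of all genes 16.6% rose in distal, 15.2% in proximal and 5.78% at both sites. Without arrays b and c of 1 h, 8 of the 25 rose in proximal and 6 at both sites. Icam1, an adhesion molecule for leukocytes, was at 7.23, 7.22 and 7.51 in distal and 8.14, 7.88 and 7.78 in proximal at 1 h, and late between 8.47 and 8.73 and between 8.02 and 8.75. It rose by 1.28 ± 0.16 and 0.44 ± 0.16, a difference of 0.84 (adjusted p = 0.0109) that was not called at 28 h alone (0.75). The proximal rise was lost without arrays b and c of 1 h (0.23, adjusted p = 0.455). Of 26 interferon and antigen processing genes 5 rose in distal and 6 in proximal against 16.6% and 15.2% of all genes, and 0 were called in the difference with all arrays. Leaving out arrays b and c of 1 h left 3 proximal rises and gave 1 called difference. Of 19 cholesterol synthesis genes 9 rose and 0 fell in distal, and 4 rose and 2 fell in proximal, and 6 were called in the difference, all positive, against 14.2% of all genes. Without arrays b and c of 1 h, 5 rose and 6 fell in proximal, and 7 positive and 1 negative differences were called. One of them, Dhcr7, the last enzyme of the pathway, rose by 0.44 ± 0.10 in distal and fell by 0.27 ± 0.10 in proximal (difference 0.71, adjusted p = 0.00139), where the proximal fall was lost without proximal array a of 1 h (−0.18, adjusted p = 0.229). Mcm6, a replication helicase subunit, rose by 1.06 in distal against 0.20 in proximal (0.86, adjusted p = 0.0106). That call was lost without proximal array a of 1 h and with all 72 arrays in the fit.

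Of 38 nociceptor and sensory genes 15 fell and 2 rose in distal and 18 fell and 5 rose in proximal, 8 falling at both sites, with medians of −0.23 and −0.27 against −0.01 in sham. Of all genes 7.28% fell in distal, 18.7% in proximal and 2.94% at both sites. In the difference 5 positive and 5 negative members were called, against 14.2% and 6.33% of all genes. The shared falls held Kcna4, Kcns1, Gfra2, Mrgprx3, Grik1, Htr1d, Adra2c and Asic1. Scn10a, the sodium channel Nav1.8, changed by −0.15 in distal and fell by 0.38 in proximal (adjusted p = 0.00937), and the difference of 0.23 was not called. At 24 h alone the proximal change was −0.14. Trpv1, the capsaicin receptor, was called at neither site (−0.15 and −0.22). Asic1, an acid-sensing channel, was at 8.93, 8.76 and 8.88 in distal and 8.97, 9.12 and 8.92 in proximal at 1 h, and between 8.38 and 8.74 and between 7.96 and 8.29 late. It fell by 0.31 and by 0.89, and by 0.36 in sham, a difference of 0.59 (adjusted p = 0.00356) that was not called with all 72 arrays in the fit. Other Asic1 probe sets gave −0.37, 0.12 and 0.01, none of them called. Trpm8, the menthol receptor, was at 7.82, 7.97 and 7.86 in distal at 1 h and between 6.18 and 6.92 late, and fell by 1.17 ± 0.24. In proximal it was at 6.59, 7.42 and 7.67 and between 7.26 and 7.96 and changed by 0.31, a difference of −1.48 (adjusted p = 0.00458). Ret, the receptor of GDNF family ligands, fell by 0.33 in distal and rose by 0.30 in proximal, a difference of −0.63 (adjusted p = 0.00279) that was not called at 28 h alone (−0.43), with all 72 arrays or on 2 other Ret probe sets (−0.35 and −0.50). The distal fall of Ret was lost without distal array a or b of 1 h (−0.31 in both), and the proximal rise without proximal array a (0.27) or b (0.28), without both b and c (0.36) and on the other probe sets (0.02 and −0.21).

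Of 27 importins and nuclear transport genes 2 rose and 1 fell in distal and 9 rose and 2 fell in proximal, and 0 changed at both sites in one direction, where 16.6% and 15.2% of all genes rose. In the difference 3 were called positive and 4 negative, against 14.2% and 6.33% of all genes, and 5 and 8 without arrays b and c of 1 h. Kpna4, importin alpha 3, was at 10.53, 10.33 and 10.68 in distal and 9.59, 9.92 and 9.94 in proximal at 1 h, and between 10.40 and 10.61 and between 10.39 and 10.66 late. It changed by 0.02 in distal and rose by 0.69 ± 0.09 in proximal, a difference of −0.67 (adjusted p = 0.00105) that was not called with all 72 arrays in the fit. Of 27 dynein, dynactin, kinesin and scaffold genes 3 rose and 3 fell in distal and 3 rose and 4 fell in proximal. In this main fit the shares were no larger than those of all genes for rises at either site and for proximal falls. After another quantile normalization 5 of them rose and 4 fell in proximal, against 2125 and 2181 of all genes. Hspa9, a mitochondrial chaperone, changed by −0.13 in distal and rose by 0.79 ± 0.12 in proximal, a difference of −0.92 (adjusted p = 0.00102). The chaperone Dnajb9 of the endoplasmic reticulum changed by 0.14 and rose by 0.69, a difference of −0.55 (adjusted p = 0.0139), not called with all 72 arrays. Dusp5, a phosphatase of ERK, fell by 0.91 in distal against −0.30 in proximal. Its difference of −0.61 (adjusted p = 0.0181) was lost without distal array a of 1 h, at 24 h alone, with all 72 arrays and without the 1 h arrays b and c.

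In whole ganglia fewer cells of a type and less RNA per cell cannot be told apart. Of 21 macrophage markers 6 rose and 3 fell in distal and 7 rose and 1 fell in proximal, with 5 shared rises (Aif1, Fcgr1a, Fcgr2b, Fcer1g and Tyrobp) against 5.78% of all genes, and no call in sham. In proximal 2 rose, and 1 at both sites, without arrays b and c of 1 h. The mean level of these markers ran from 7.78 to 8.21 in distal at 1 h, 8.17 to 8.39 in distal late, 7.88 to 8.09 in proximal at 1 h and 7.90 to 8.90 in proximal late. Mrc1, the mannose receptor of resident macrophages, was at 8.61, 8.73 and 8.71 in distal at 1 h and between 7.41 and 7.88 late, and fell by 1.01 ± 0.15. In proximal it was at 7.27, 7.18 and 7.29 and between 7.10 and 7.77, and changed by 0.29, a difference of −1.30 (adjusted p = 0.000321). S100a9, a neutrophil protein, was at 8.95 and 9.30 on proximal arrays b and c of 28 h and at most 6.67 on the other lesioned arrays of these hours. It rose by 1.24 in proximal but by 0.12 at 24 h alone, and the difference of −0.63 was not called, except without proximal array a of 28 h (−1.04, adjusted p = 0.00362). Of 8 satellite glia markers 2 rose in distal and 4 in proximal against 16.6% and 15.2% of all genes, with Gfap and Sox10 at both sites. Glul, the glutamine synthetase of satellite glia, changed by 0.09 in distal, rose by 0.48 ± 0.08 in proximal and fell by 0.31 in sham, a difference of −0.39 (adjusted p = 0.0226). That call was lost without distal or proximal array b of 1 h, without both arrays b and c, at 24 h alone, with the fourth distal array of 1 h and with all 72 arrays. Of 22 sensory neuron markers 5 fell in distal and 8 in proximal, and Isl1, Isl2 and Rbfox3 fell at both sites, where 7.28%, 18.7% and 2.94% of all genes fell. In proximal 4 of the 22 fell without arrays b and c of 1 h.

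**Figure D5:**
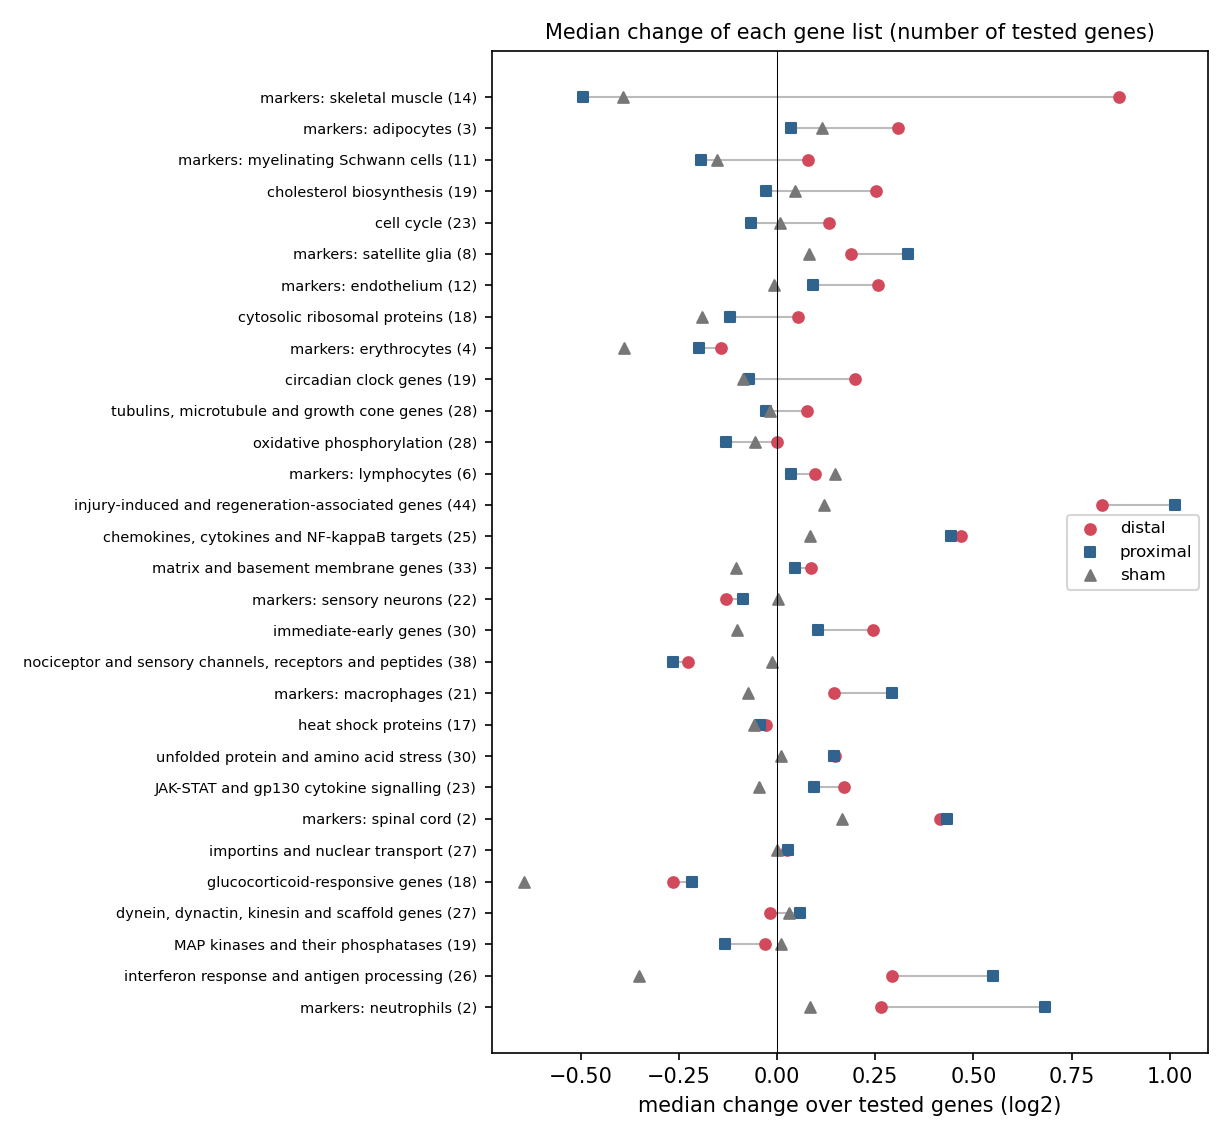
Median log2 change over the tested members of each gene list in distal (circles), proximal (squares) and sham (triangles), with the number of tested genes in brackets and lists ordered by the difference between sites. The sites lie far apart for skeletal muscle markers (0.87 and −0.49) and close together for chemokines and nociceptor genes (−0.23 and −0.27), and sham lies lowest for glucocorticoid-responsive genes (−0.64).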

How the data were processed

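The authors deposited log2 intensities of Affymetrix rat arrays, made with RMA per the submitters' processing notes. The sources used here do not say whether all 72 arrays were normalized in one run. Array medians ran from 6.88 to 7.08. Of 31099 probe sets, 20826 carried 1 gene symbol in the platform annotation, 436 several and 9780 none, beside 57 controls, and 20758 were matched to RefSeq names. Of several probe sets for a gene, the one brightest on average across the 72 arrays was used, and genes with a mean below the 25th percentile (5.46) were dropped, which left 12276 of 14217. A mean per group was fitted to 27 arrays in limma 3.58.1 (R 4.3.3) with a variance trend, and p-values were adjusted by Benjamini-Hochberg over all 12276 genes at a threshold of 0.05. SE values come from this fit. Where a group mean was below 5.46, the fold was computed against 5.46 and is a lower bound. Precision is limited by the number of arrays. The fit was checked on simulated data.

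Named genes were the 10 shared rises and 10 shared falls with the largest smaller change and no overlap in time, the 10 largest called differences in each direction, a fixed set of injury, clock and sensory genes, and up to 4 members a list with the smallest p in the difference. Per3, Nr1d1, Ckm, Acta1, Tnnt3, Tnni2, Actn3, Trpm8 and Cacna2d1 were chosen after their values were seen, as were genes that the text lists without values. The members and lists were chosen with earlier results of these data known. The array letters may mark a pairing, which the labels do not state. Deviations of arrays with the same letter correlated over 0.1 for all 3 letters between proximal and sham at 1 h (0.696, 0.509 and 0.478) and for no other pair of groups, so the letters were not taken to pair the arrays. The deviation shared by proximal and sham at 1 h thus stayed in the spread of the main fit. With a term for the 1 h arrays b and c, 913 genes were called in proximal beyond sham in place of 413. A proximal change not called beyond sham is therefore no test of likeness to sham. All 72 columns of values were matched to a sample, and 0 were not.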

Additional observations from a re-analysis of the deposited data

Results flagged for a closer look

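The changes at the 2 sites differed by a test of the difference itself for 2522 genes, which include the following named genes, each given with the distal minus the proximal change on the log2 scale. Among injury genes these were Il6 (1.27), Cacna2d1 (1.63), Csrp3 (0.85), Vip (0.76), Sprr1a (0.75), Npy (0.63) and Ecel1 (−0.64). Among genes that were level in distal and fell in proximal and sham these were Rasal2 (3.39), Onecut2 (3.30), Rab14 (2.82), Tcf4 (2.76), Secisbp2l (2.73), Slc5a3 (2.70) and Dync1li1 (2.48). The calls of Rasal2, Rab14, Tcf4, Slc5a3 and Dync1li1 were lost when a single 1 h array was left out. Other probe sets of Rab14 and Dync1li1 gave called differences of the other sign. Muscle genes were Myl1 (3.59), Myl11 (2.98), Tnnc2 (2.93), Tnni2 (2.12), Tnnt3 (2.08), Ckm (1.81), Actn3 (1.76) and Acta1 (1.31).

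Negative differences were found for Far1 (−2.43), Kif5c (−2.27), Pik3r1 (−2.19), Gabrg1 (−2.15), Ddx3x-ps1 (−2.09), Chm (−2.07), Utrn (−2.05), Ireb2 (−2.04), Luzp2 (−1.95), Cds2 (−1.85), Trpm8 (−1.48), Mrc1 (−1.30), Rgs1 (−1.10), Hspa9 (−0.92), Kpna4 (−0.67), Ret (−0.63), Dusp5 (−0.61), Dnajb9 (−0.55) and Glul (−0.39). Clock and glucocorticoid-responsive genes were Nr1d1 (1.34), Dbp (1.30), Per3 (1.27), Tef (0.94), Per1 (0.81), Klf9 (1.46) and Nfkbia (1.12), and the Dbp call was lost in most fits that left out 1 array. Mcm6 (0.86), Icam1 (0.84), Dhcr7 (0.71) and Asic1 (0.59) completed the set.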

How the results depend on the processing

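Calls depended on the fit and on the 1 h arrays. With all 72 arrays in the fit, calls numbered 1777 in distal, 2642 in proximal, 1081 in the difference, 270 in sham, 167 in proximal beyond sham, 593 in distal beyond sham and 586 shared. Array weights gave 5102 in distal, 3848 in the difference, 325 in sham, 257 in proximal beyond sham and 1982 shared. With every probe set tested, 5123 were called in distal, 6474 in proximal, 3840 in the difference and 1346 in sham. At 28 h alone the difference had 1254 calls, sham 136 and distal beyond sham 905, and at 24 h alone proximal beyond sham had 158 and distal beyond sham 941. The next 3 settings were chosen after seeing the data. Without the 1 h arrays b and c of proximal and sham, calls were 4805 in the difference, 433 in sham, 804 in proximal beyond sham and 2426 in distal beyond sham. Without their arrays a, calls were 2404 in sham, 629 in proximal beyond sham and 2364 in distal beyond sham. With b and c as a technical term, calls were 5150 in the difference, 1935 in sham, 913 in proximal beyond sham and 3369 in distal beyond sham. Leaving out 1 array gave 1999 to 2655 calls in distal, 3003 to 4127 in proximal, 1639 to 2908 in the difference, 217 to 1751 in sham, 225 to 1088 in proximal beyond sham, 1035 to 1725 in distal beyond sham and 802 to 1109 shared. The cause of these shifts was not tested.

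With the array letter as a replicate block, 2918 genes were called in distal, 4144 in proximal, 2497 in the difference, 751 in sham, 403 in proximal beyond sham, 1504 in distal beyond sham and 1073 shared, and among named genes the Dbp difference alone lost its call. After another quantile normalization 2125 proximal calls were higher and 2181 lower, sham had 658 higher and 390 lower, and distal beyond sham 928 higher and 574 lower. With the technical term, 1710 proximal calls were higher and 3906 lower.

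Signs turned for Isl1 with the technical term (difference −0.70) and for Rab14 without arrays b and c (proximal 0.027). Where at least 1 of the values was called, other probe sets of the same gene gave the opposite sign in distal for Per2 (0.96), Tef (−0.40), Chm (0.093), Rab14 (−0.58), Asic1 (0.060 and 0.051), Per3 (−0.014), Cebpd (−0.054), Onecut2 (0.42), Isl1 (0.068) and Utrn (0.56). In proximal they did so for Stat3 (−0.98), Dync1li1 (1.17), Gap43 (−0.079), Rab14 (0.72 and 1.14), Ret (−0.21), Cebpd (−0.14), Onecut2 (0.80), Hspa9 (−0.093), Asic1 (0.039) and Utrn (−0.31). In the difference they did so for Ecel1 (0.063), Tef (−0.20), Dync1li1 (−2.06), Chm (0.025), Rab14 (−1.30 and −1.66), Slc5a3 (−0.10), Kif5c (0.77), Klf9 (−0.34), Asic1 (−0.37), Per3 (−0.027), Onecut2 (−0.38) and Utrn (0.87). The cause was not tested.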
